A study of Mus musculus with 9 samples.

Results

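Box H/ACA small nucleolar RNAs and small Cajal body-specific RNAs were examined in mouse hearts collected around birth. Every gene whose symbol began with *Snora* or *Scarna* was taken from the deposited expression table, and a gene was kept if its value was above 0 in at least 1 heart. Of 48820 rows in the table, 37 carried such a symbol (33 *Snora* and 4 *Scarna*). Values above 0 were found for 7 of them, namely *Snora73b*, *Snora73a*, *Scarna13*, *Scarna6*, *Snora23*, *Snora81* and *Snora74a*, and the other 30 were listed at 0 in every heart. No row repeated the values of another. The hearts came from wild-type, untreated C57BL/6J mice, an inbred strain, at embryonic day 18.5 (E18.5d), postnatal day 1 (P1d) and postnatal day 7 (P7d), with 3 biological replicates per stage and every heart labelled male. Total RNA was extracted from the whole organ, so fewer cells of a type and less RNA per cell cannot be told apart. Levels are given in FPKM, that is, fragments per kilobase of gene per 1e6 mapped fragments.

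Box H/ACA RNAs fold into hairpins followed by an H box and an ACA box close to the 3′ end. They pair with a target RNA and direct the conversion of a chosen uridine to pseudouridine by the enzyme dyskerin, which works in a complex with Nhp2, Nop10 and Gar1. Most *Snora* RNAs act in the nucleolus on ribosomal RNA, whereas *Scarna* RNAs are held in Cajal bodies and act on the small nuclear RNAs of the spliceosome. In mammals nearly all of them are cut out of introns of longer host transcripts, many of which encode ribosomal proteins or belong to the noncoding small nucleolar RNA host genes (*Snhg*). The *Snora73* RNAs, also called U17, take part in the cleavage of the ribosomal RNA precursor rather than in its modification.

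The sequences of the 4 RNAs measured in every heart are shown first, because the members differ in their boxes and the *Snora73* pair is nearly identical. All sequences were read from the GENCODE M21 transcripts of GRCm38, 5′ to 3′. *Snora73b* lies at chr4:132352322-132352526 and *Snora73a* at chr4:132352775-132352979, both on the minus strand, and capitals mark the bases at which they differ.
Snora73b: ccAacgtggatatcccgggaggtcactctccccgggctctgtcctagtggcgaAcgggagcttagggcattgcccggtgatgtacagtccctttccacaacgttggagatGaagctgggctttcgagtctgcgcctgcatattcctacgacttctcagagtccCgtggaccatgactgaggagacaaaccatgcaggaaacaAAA
Snora73a: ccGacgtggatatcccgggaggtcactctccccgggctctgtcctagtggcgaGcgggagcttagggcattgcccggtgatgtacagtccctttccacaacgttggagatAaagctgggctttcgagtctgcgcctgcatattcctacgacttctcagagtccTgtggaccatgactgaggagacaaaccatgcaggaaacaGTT

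The *Snora73* sequences were identical at 198 of 205 bases (96.59%). With positions counted from the 5′ end and the *Snora73b* base given first, the 7 substitutions were A3G, A54G, G111A, C164T, A203G, A204T and A205T. The last 3 of these fall after the ACA box, so 4 differences remain within the body of the RNA. The similarity bears on the values of both genes, since a fragment that covers none of these positions fits either sequence.

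*Scarna13* lies at chr12:105031075-105031349 on the minus strand, in an intron of the noncoding gene *Snhg10*. *Scarna6* lies at chr1:87784556-87784820 on the plus strand, in an intron of *Atg16l1*, which encodes an autophagy protein. They are shown because both changed with stage and because their ends differ. Capitals mark TGAG and the ACA before the last 3 bases in *Scarna13*, and TGATGA (the C box) and CTGA (the D box) in *Scarna6*.
Scarna13: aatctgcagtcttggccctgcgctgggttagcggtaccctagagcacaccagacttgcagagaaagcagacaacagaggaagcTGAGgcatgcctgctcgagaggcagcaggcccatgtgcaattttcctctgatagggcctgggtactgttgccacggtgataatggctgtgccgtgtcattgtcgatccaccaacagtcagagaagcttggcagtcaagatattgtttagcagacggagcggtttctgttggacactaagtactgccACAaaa
Scarna6: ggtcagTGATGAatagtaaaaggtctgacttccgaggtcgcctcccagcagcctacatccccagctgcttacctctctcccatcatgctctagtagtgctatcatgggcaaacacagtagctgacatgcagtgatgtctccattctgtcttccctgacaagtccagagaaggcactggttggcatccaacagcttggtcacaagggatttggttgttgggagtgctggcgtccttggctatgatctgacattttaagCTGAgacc

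The letters ACA stood directly before the last 3 bases in 29 of the 37 *Snora* and *Scarna* transcripts (78.38%), against 6.233% of the 5134 annotated transcripts of 121 to 275 bases. Only the strand of the transcript was searched. None of 53 transcripts with a *Snord* symbol, the box C/D family that directs methylation of ribose, had these letters there. Among the 7 measured members, 4 had them, and among the rows at 0, 25 of 30. Anywhere in the last 10 bases, ACA was present in 34 of the 37 (91.89%). These were 5 of the 7 members, now with *Snora74a*, and 29 of the 30 rows at 0. The share was 7.547% of *Snord* transcripts and 22.56% of all transcripts of 121 to 275 bases. *Scarna6* was the only one of the 37 with both TGATGA in its first 20 bases and CTGA in its last 12 bases. This combination was present in 66.04% of *Snord* transcripts and in 0.2337% of all transcripts of 121 to 275 bases. *Scarna6* is known as a guide of mixed type with both box C/D and box H/ACA domains. The letters ANANNA, in the form of the H box, were present somewhere in all 37 but also in 92.95% of all transcripts of that length. TGAG, in the form of the CAB box that holds RNAs in Cajal bodies, was present in 54.05% against 59.41%.

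Before the results, several properties of the libraries have to be given. Per heart, 25.5 to 45.0 times 1e6 fragments were read back from the steps between low FPKM values. This depth was 25.5 to 37.5 at E18.5d, 27.75 to 29.75 at P1d and 36.5 to 45.0 at P7d, so every P1d heart was below every P7d heart. The fit took 296 to 328 bases off the gene length, which is more than the length of any of the 37 genes, and how the authors scaled such short genes is not given in the sources used here. All 5 cardiomyocyte markers were present in every heart, with summed levels of 15040 to 19630 FPKM. *Xist*, the RNA that coats the silenced X chromosome of female cells, reached 58.03 to 97.03 FPKM in 4 hearts labelled male (E18.5d replicates 1 and 3, P7d replicates 2 and 3) and 0.02 to 0.11 FPKM in the other 5, while Y-linked *Ddx3y* was listed at 0 in those 4 and was 12.86 to 16.42 FPKM in the other 5. P1d replicate 2 had the highest column sum (1794160 FPKM, against 1347981 to 1520448 in the other hearts) and the largest share of 5 abundant structural RNAs (62.26%, against 53.32% to 59.33%). Stages were compared with limma on log2(FPKM + 1) over 13618 genes averaging 1 FPKM or more. Between stages, the median of these genes differed by log2 -0.06 at P1d against E18.5d, -0.09 at P7d against P1d and -0.17 at P7d against E18.5d.

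Whether an H/ACA RNA had a value above 0 followed its length without overlap. The 30 rows at 0 were annotated at 121 to 149 bases, and the 7 members at 178 to 275 bases. The same boundary ran through the whole table. None of its 5709 rows of up to 149 bases was above 0 in any heart, and only 1 of 418 rows of 150 to 177 bases was. At 178 to 205 bases, where 5 members lie, 28 of 265 rows (10.57%) were above 0. The box C/D family showed the same picture, with 1 of 53 *Snord* rows above 0 (*Snord17*, 238 bases). A value of 0 at these lengths is therefore listed as such and was not read as absence of the RNA.

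**Figure D1:**
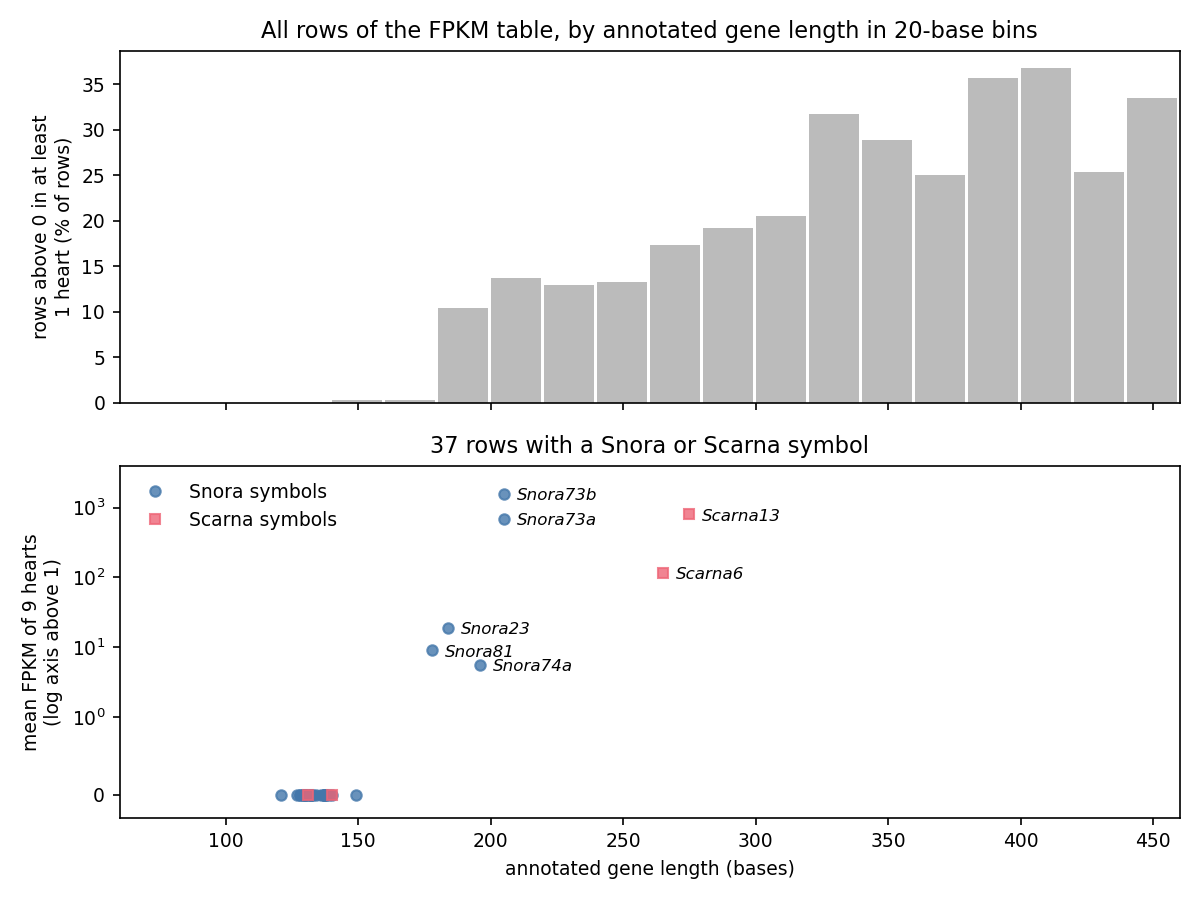
Values above 0 by annotated gene length. The upper panel gives the percentage of all rows of the table above 0 in at least 1 heart, in bins of 20 bases. The lower panel gives the mean FPKM of the 9 hearts (log axis above 1) for the 37 *Snora* (circles) and *Scarna* (squares) rows, with the 7 members named and the 30 rows of 121 to 149 bases lying at 0.

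Most host genes of the rows at 0 had values above 0. Of these 30 rows, 28 had a host on the same strand that was in the table, 26 host genes in all, and 24 of the hosts had a mean of at least 1 FPKM. The 12 hosts above 100 FPKM included *Rps12*, which encodes a ribosomal protein of the small subunit (1047 FPKM, host of *Snora33*), *Rpl32* (1010 FPKM, host of *Snora7a*) and *Tpt1*, which encodes translationally controlled tumor protein (832.0 FPKM, host of *Snora31*). The other hosts, *Htr2c*, a serotonin receptor gene that holds *Snora35*, and *Snhg9*, which holds *Snora78*, were listed at 0. Over all 37 rows, 35 had a host on the same strand, of which 10 were ribosomal protein genes and 7 were *Snhg* genes. The RNA lay in an intron of every host transcript in 17 cases and overlapped an exon of some transcript in 18.

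Each of the 4 H/ACA RNAs measured in every heart had its highest mean at P1d and its lowest at P7d. The structural RNA *Rmrp* (271 bases) had the same order of means. *Rpph1* and *Rn7sk* were also highest at P1d, whereas *Rn7s1* and *Rn7s2* were not. At P7d against P1d, 3 of the 7 members were lower (*Scarna6*, *Scarna13* and *Snora73a*) and none was higher, with 28.6% of all tested genes lower and 15.5% higher. At P1d against E18.5d, 1 member was higher (*Scarna6*) and none was lower, with 18.4% of tested genes higher and 27.6% lower. At P7d against E18.5d, 1 member was lower (*Scarna13*) and none was higher, with 36.9% of tested genes lower and 12.5% higher. The median log2 change of the 7 members was 0.00 at P1d against E18.5d, -0.32 at P7d against P1d and -0.39 at P7d against E18.5d. In the 64 other tested rows of 178 to 275 bases, these medians were -0.05, -0.18 and -0.44. The 3 comparisons share their hearts in pairs and are not independent of each other. Stages whose hearts do not overlap are described below for single genes. The share of all tested genes without such overlap is not given here, so a lack of overlap is not read as particular to these RNAs.

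Without the 4 hearts with *Xist*, which leaves 1 E18.5d heart, 3 P1d hearts and 1 P7d heart, no member was called in any comparison with limma. The lone hearts are then assumed to vary like the P1d hearts. With *Xist* above 1 FPKM as a covariate and all 9 hearts in the fit, *Scarna6* and *Scarna13* were lower at P7d than at P1d, *Scarna13* was lower at P7d against E18.5d, and no member was higher at P1d. All 4 hearts with *Xist* were at E18.5d or P7d and none at P1d. Of 48 calls in the 3 comparisons among the members, hosts, list genes and near relatives named below, 3 were kept without the 4 hearts (*Gar1*, *Fbl* and *Nop58* at P1d against E18.5d) and 37 with the covariate, and all 48 kept their direction in both. Over all tested genes, the calls in either direction without the 4 hearts numbered 823 at P1d against E18.5d, 179 at P7d against P1d and 194 at P7d against E18.5d, in place of 6260, 6013 and 6731. The part of this difference in the changes with stage was not tested beyond these fits.

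**Figure D2:**
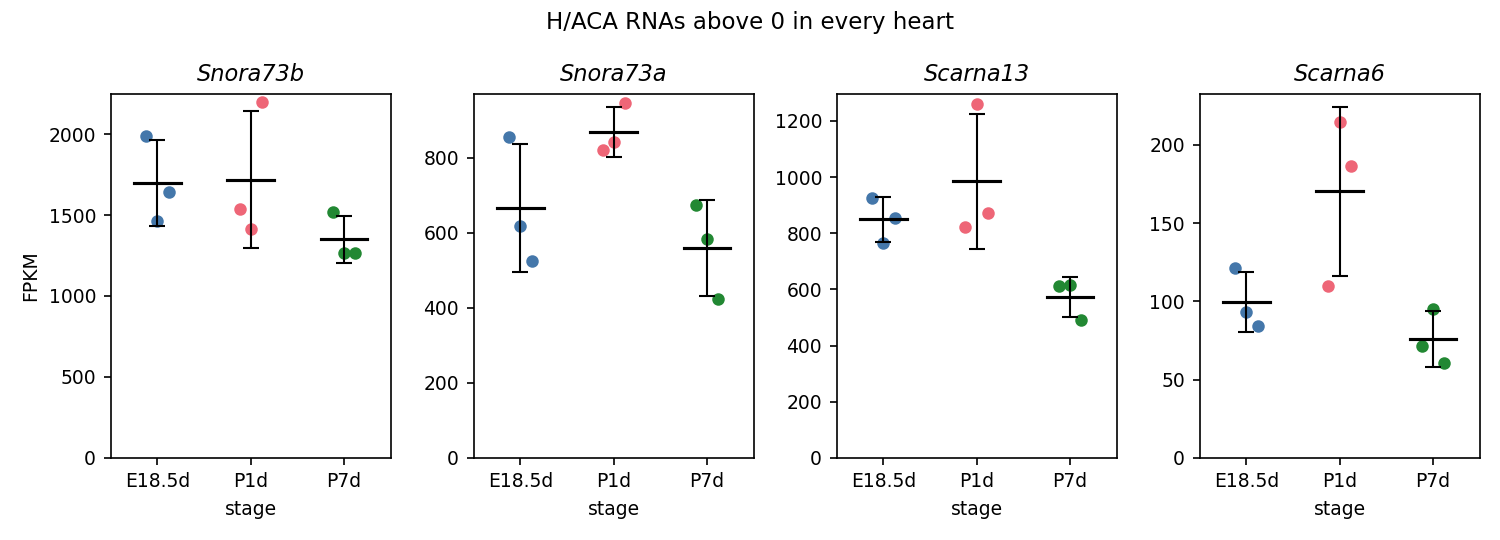
FPKM of the 4 H/ACA RNAs above 0 in every heart, by stage, each panel with its own axis from 0. Points are single hearts (3 per stage), long bars are means and error bars are SD. For *Snora73a*, *Scarna13* and *Scarna6* the 3 P7d hearts lie below the 3 P1d hearts. The share of all tested genes separated in this way is not given here.

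*Snora73b* had the highest listed level of the members, with a mean of 1588 FPKM over the 9 hearts. Since the scaling of genes this short is not known, FPKM does not rank the members by amount of RNA. *Snora73b* was 1986.81, 1464.85 and 1639.7 FPKM in the E18.5d hearts, 1539.39, 1411.2 and 2200.86 FPKM in the P1d hearts, and 1518.51, 1265.93 and 1267.96 FPKM in the P7d hearts. The stages overlapped, with P1d replicate 3 and E18.5d replicate 1 highest and P7d replicates 2 and 3 lowest. The means were 1697 ± 265.7, 1717 ± 423.8 and 1351 ± 145.2 FPKM (SD, n = 3 each). No difference passed the test with limma (log2 change 0.00 at P1d against E18.5d, 95% interval -0.38 to 0.38, and -0.32 at P7d against P1d, 95% interval -0.71 to 0.06, adjusted p = 0.151).

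*Snora73a*, the near copy located upstream in the same host, was 855.2, 618.21 and 524.59 FPKM at E18.5d, 820.33, 841.6 and 945.85 FPKM at P1d, and 675.39, 584.65 and 422.64 FPKM at P7d. All P7d hearts were below all P1d hearts, and the E18.5d hearts overlapped with both. The mean of 560.9 ± 128.0 FPKM at P7d was 35.5% lower than that of 869.3 ± 67.18 FPKM at P1d (SD, n = 3 each), a log2 change of -0.66 ± 0.20 (SE, adjusted p = 0.0233 with limma). The mean of 666.0 ± 170.4 FPKM at E18.5d was not called different from either (log2 change 0.41 at P1d against E18.5d, 95% interval -0.03 to 0.85, called only without E18.5d replicate 1, adjusted p = 0.0276, and -0.24 at P7d against E18.5d, 95% interval -0.69 to 0.20). The fall from P1d to P7d was not called without P1d replicate 3 (-0.59, adjusted p = 0.0658), without P7d replicate 3 (-0.46, adjusted p = 0.078), with no filter on low values (adjusted p = 0.0628), after scaling the columns to an equal sum (-0.53, adjusted p = 0.051) or by median of ratios (-0.52, adjusted p = 0.0627), or with the *Xist* covariate (-0.55, adjusted p = 0.129).

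The *Snora73* RNAs were also summed, because fragments of one can be counted for the other. Their sum was 2842, 2083 and 2164 FPKM at E18.5d, 2360, 2253 and 3147 FPKM at P1d, and 2194, 1851 and 1691 FPKM at P7d. Every P7d heart was below every P1d heart in the sum, and P7d overlapped with E18.5d. *Snora73b* exceeded *Snora73a* in each heart, by 1.68 to 3.13 times, and the ratio overlapped between all stages. A further near copy, *Gm26448* (chr9:120129351-120129553, 89.109% identity to *Snora73b* over 202 bases), was also above 0 in every heart. From 337.5 ± 58.52 FPKM in the E18.5d hearts and 327.7 ± 111.9 FPKM in the P1d hearts it fell to 164.0 ± 52.49 FPKM in the P7d hearts (SD, n = 3 each), with log2 changes of -1.08 (adjusted p = 0.0152) and -0.98 (adjusted p = 0.0256) with limma. The first was not called without E18.5d replicate 1 or P7d replicate 3, and the second without P1d replicate 2 or 3 or P7d replicate 3, nor by median of ratios. It has no *Snora* symbol and is not a member.

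*Scarna13* had the highest listed level of the Cajal body RNAs with a symbol. Its values were 927.08, 766.85 and 855.52 FPKM at E18.5d, 820.45, 1259.31 and 873.21 FPKM at P1d, and 612.26, 614.44 and 491.06 FPKM at P7d. Every P7d heart was below every earlier heart, while E18.5d and P1d overlapped. The mean at P7d (572.6 ± 70.61 FPKM) was 41.8% lower than at P1d (984.3 ± 239.6 FPKM) and 32.6% lower than at E18.5d (849.8 ± 80.27 FPKM; SD, n = 3 each). With limma, the log2 change was -0.76 ± 0.16 against P1d (SE, adjusted p = 0.00429) and -0.57 ± 0.16 against E18.5d (SE, adjusted p = 0.0148). The first was called after leaving out any single heart. The second was not called without E18.5d replicate 1 (-0.51, adjusted p = 0.0529), without P7d replicate 3 (-0.46, adjusted p = 0.0555) or by median of ratios (-0.36, adjusted p = 0.109). At P1d against E18.5d the log2 change was 0.19 (95% interval -0.17 to 0.55), and it was -0.00144 without P1d replicate 2, the heart with the largest share of structural RNAs.

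*Scarna6*, the guide of mixed type, was 121.06, 92.94 and 84.43 FPKM at E18.5d, 109.98, 214.35 and 186.74 FPKM at P1d, and 71.47, 95.38 and 60.87 FPKM at P7d. P1d replicates 2 and 3 stood above all other hearts, P1d replicate 1 lay within the E18.5d range, and all P7d hearts were below all P1d hearts. The mean rose by 71.3% from 99.48 ± 19.17 FPKM at E18.5d to 170.4 ± 54.08 FPKM at P1d (SD, n = 3 each), a log2 change of 0.73 ± 0.25 (SE, adjusted p = 0.0375 with limma). It was 55.5% lower at P7d than at P1d, at 75.91 ± 17.68 FPKM (SD, n = 3), a log2 change of -1.13 ± 0.25 (SE, adjusted p = 0.00578 with limma). The fall was called after leaving out any single heart. The rise was not called without E18.5d replicate 2 or 3, without P1d replicate 2 or 3 or without P7d replicate 1, where adjusted p was between 0.052 and 0.124 and the log2 change between 0.54 and 0.73, nor with the *Xist* covariate (adjusted p = 0.0868). P7d and E18.5d overlapped, and their difference did not pass the test (log2 change -0.39, 95% interval -0.96 to 0.17).

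The remaining members had values in a few hearts only. *Snora23*, in an intron of the nuclear import gene *Ipo7* (chr7:110046364-110046547, plus strand), was listed at 61.28, 0 and 43.22 FPKM in the E18.5d hearts, at 0 in all P1d hearts, and at 0, 0 and 64.65 FPKM in the P7d hearts. *Snora74a* (chr18:35557032-35557227, plus strand) was listed at 14.64, 0 and 10.93 FPKM at E18.5d, at 0 in all P1d hearts and at 0, 13.55 and 10.91 FPKM at P7d. *Snora81* (chr16:23110756-23110933, plus strand) had 81.19 FPKM in E18.5d replicate 3 and was listed at 0 in the other 8 hearts. These genes are members only through E18.5d or P7d hearts (3 hearts for *Snora23*, 4 for *Snora74a* and 1 for *Snora81*). Their zeros at P1d are therefore not read as a change, although they enter the counts and medians of the 7 members. None of these genes passed the test with limma in any comparison. The 226 rows of 178 to 205 bases other than small nuclear RNAs included these members, and 5 to 11 rows were above 0 per heart. The smallest value above 0 was 8.8 to 27.97 FPKM in the P1d hearts and 1.75 to 14.64 FPKM in the other hearts. In E18.5d replicates 1 and 3 and P7d replicate 3, it was the value of *Snora74a* itself. These levels are therefore not a separate measure of the floor for these genes.

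*Snora74a* was above 0 in the 4 hearts with *Xist* and in no other heart, *Snora23* in 3 of these 4, and *Snora81* in 1 of them. The part of this difference between hearts in these values was not tested. Leaving out single hearts brought calls for 2 of these genes. *Snora74a* and *Snora23* were called lower at P1d than at E18.5d without E18.5d replicate 2, *Snora74a* also without P7d replicate 1, and *Snora23* without P7d replicate 3. *Snora74a* was called higher at P7d than at P1d without E18.5d replicate 2 or without P7d replicate 1. E18.5d replicate 2 was the only E18.5d heart at 0 for both genes, and P7d replicate 1 the only P7d heart at 0 for *Snora74a*. P7d replicate 3 was the only P7d heart above 0 for *Snora23*. These calls are therefore not read as results. All 178 bases of *Snora81* are contained in an annotated transcript of its host *Eif4a2*, which encodes an RNA helicase of translation initiation, so its fragments cannot be told apart from those of this transcript. Another gene, *Gm22519*, matches *Snora81* at 98.876% and was listed at 0 in every heart.

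The 14 rows that GENCODE names as *Snora* or *Scarna* but for which the table gives no symbol fell outside the definition and are given for comparison. Of these, 12 were at 0 and 2, *Scarna2* and *Scarna10*, were above 0. Their boxes are not given here. *Scarna2* (chr3:108554338-108554751, 414 bases) was 784.33, 773.94 and 630.28 FPKM at E18.5d, 778.33, 956.56 and 789.85 FPKM at P1d, and 582.33, 523.59 and 412.77 FPKM at P7d. Its P7d hearts were below all others, with log2 changes of -0.74 against P1d (adjusted p = 0.00246) and -0.53 against E18.5d (adjusted p = 0.0111) with limma, the second of which was not called by median of ratios (-0.32, adjusted p = 0.0922). *Scarna10* (chr6:125186359-125186683, 325 bases) was listed higher than any member, with 6051 ± 432.8 FPKM in the E18.5d hearts, 8311 ± 1193 FPKM in the P1d hearts and 6545 ± 1213 FPKM in the P7d hearts (SD, n = 3 each). *Scarna10* was higher at P1d than at E18.5d (log2 change 0.45, adjusted p = 0.0352 with limma). This call was lost with no filter on low values, with the *Xist* covariate and when replicate 2 or 3 of either stage was left out. Its difference at P7d against P1d did not pass the test (-0.35, adjusted p = 0.0860 with limma). Its length exceeds the 296 to 304 bases taken off at E18.5d but lies within the 324 to 328 bases taken off at P1d. The part of this in its level and rise was not tested.

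Host genes of the members were compared with the RNAs they carry. *Snhg3*, the noncoding host of both *Snora73* RNAs, was 21.07, 15.08 and 18.86 FPKM at E18.5d, 22.8, 33.84 and 26.32 FPKM at P1d, and 14.09, 16.47 and 11.64 FPKM at P7d. Every P1d heart was above every other heart. It rose at P1d against E18.5d (log2 change 0.56, adjusted p = 0.0223) and fell at P7d against P1d (-0.92, adjusted p = 0.00214) with limma. The rise was not called without E18.5d replicate 2, without P1d replicate 2 or with no filter on low values. *Rcc1*, which encodes the nucleotide exchange factor of the GTPase Ran and spans the same introns on the same strand, was lowest at P1d. Its mean fell from 9.573 ± 2.181 FPKM in the E18.5d hearts to 5.74 ± 0.9866 FPKM in the P1d hearts (log2 change -0.64, adjusted p = 0.00938 with limma) and was 7.95 ± 0.4949 FPKM in the P7d hearts (SD, n = 3 each; log2 change 0.42, adjusted p = 0.0575 against P1d, and called without E18.5d replicate 3 or by median of ratios). The listed values of *Snhg3* and *Rcc1* thus moved in opposite directions between E18.5d and P1d. An annotated *Snhg3* transcript contains 159 bases of *Snora73a*, and the part of *Snora73a* fragments in the rise of *Snhg3* was not tested.

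*Snora73b* was 41.7 to 109.0 times as high as *Snhg3* on the FPKM scale, and *Snora73a* 24.9 to 47.9 times. The size of these ratios depends on how such short genes were scaled, which is not known. The ratio of *Snora73b* to *Snhg3* was 86.9 to 97.1 at E18.5d, 41.7 to 83.6 at P1d and 76.9 to 109.0 at P7d, so that every P1d heart was below every E18.5d heart. Bases 47 to 205 of *Snora73a* (159 bases) are identical to sequence of an annotated *Snhg3* transcript, whereas *Snora73b* shares 56 bases (55 to 110) with one. The values of *Snora73a* and *Snhg3* are therefore not separate measurements.

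*Atg16l1*, the host of *Scarna6*, had means of 16.45 ± 2.722 FPKM in the E18.5d hearts, 19.05 ± 2.538 FPKM in the P1d hearts and 14.83 ± 1.179 FPKM in the P7d hearts (SD, n = 3 each). No difference passed the test with limma (log2 change 0.20 at P1d against E18.5d, adjusted p = 0.216, and -0.34 at P7d against P1d, adjusted p = 0.0563), although its P7d hearts did not overlap with its P1d hearts. The second difference was called without E18.5d replicate 2 or 3 or without P1d replicate 2. The ratio of *Scarna6* to *Atg16l1* was 4.38 to 7.46 at E18.5d, 5.61 to 13.2 at P1d and 4.43 to 6.51 at P7d, with P1d replicate 2 highest. *Ipo7*, the host of *Snora23*, fell from 49.02 ± 2.19 FPKM at E18.5d to 32.25 ± 2.036 FPKM at P1d (SD, n = 3 each; log2 change -0.59, adjusted p = 0.000118 with limma). *Eif4a2* was 185.6 ± 17.38 FPKM at P1d and fell to 137.1 ± 6.746 FPKM at P7d (SD, n = 3 each; log2 change -0.43, adjusted p = 0.00159 with limma), a call lost at an equal sum. Of the 5 hosts in the table, 3 were called at P1d against E18.5d (1 higher, 2 lower), 2 at P7d against P1d and 2 at P7d against E18.5d (all lower), beside 46.0%, 44.2% and 49.4% of tested genes called in either direction. By median of ratios, 2 hosts were higher at P7d than at P1d (*Rcc1*, and *Ipo7* at 0.26, adjusted p = 0.0114 with limma) and 2 were lower. Among the 13618 tested genes, 3194 were then higher and 2471 lower. *Snhg10*, the host of *Scarna13*, was not analysed here.

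**Figure D3:**
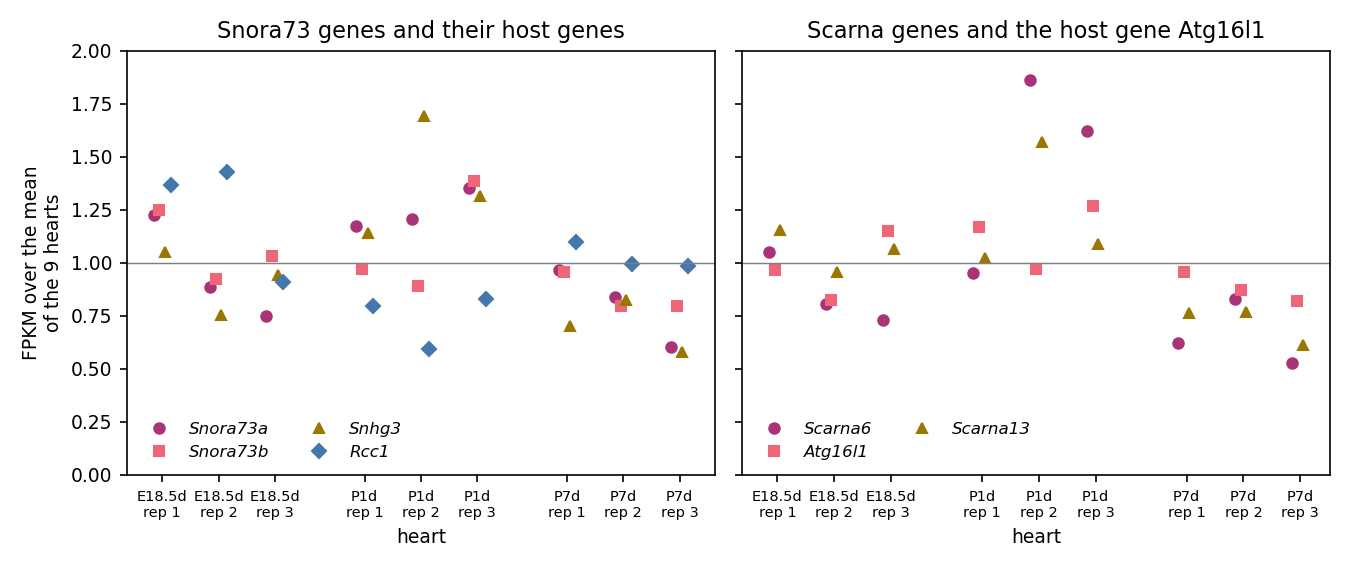
FPKM of the *Snora73* RNAs with their hosts *Snhg3* and *Rcc1* (left) and of *Scarna6*, its host *Atg16l1* and *Scarna13* (right), each divided by its mean over the 9 hearts (grey line at 1.00). Each column is a heart, and at P1d *Snhg3* lies above the line in all hearts while *Rcc1* lies below it.

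The proteins that assemble on H/ACA RNAs were measured by a list of 6 genes. At P1d against E18.5d, 5 of 6 were lower and none was higher, at P7d against E18.5d 5 of 6 were lower, and at P7d against P1d 1 of 6 was lower, with list medians of -0.32, -0.41 and -0.04 on the log2 scale. Of all tested genes, 27.6%, 36.9% and 28.6% were lower in these comparisons. *Nop10*, which encodes a small subunit bound to dyskerin, was 36.57, 37.9 and 37.24 FPKM at E18.5d, 22.36, 27.24 and 21.7 FPKM at P1d, and 21.78, 20.97 and 21.14 FPKM at P7d. Every E18.5d heart was above every later heart (log2 change -0.63, adjusted p = 0.000242 at P1d and -0.78, adjusted p = 6.80e-05 at P7d, with limma). *Gar1*, which aids the release of the substrate, fell from 15.84 ± 2.987 FPKM to 9.23 ± 0.93 FPKM at P1d (log2 change -0.71, adjusted p = 0.00645 with limma) and was 8.707 ± 1.841 FPKM at P7d (SD, n = 3 each).

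*Nhp2*, which binds the hairpin, was the member of this list that fell in all 3 comparisons, from 29.23 ± 0.8502 FPKM at E18.5d to 24.09 ± 1.308 FPKM at P1d and then to 20.89 ± 1.017 FPKM at P7d (SD, n = 3 each). The last step (log2 change -0.20, adjusted p = 0.0286 with limma) was not called under either other scaling or without P1d replicate 1, P7d replicate 1 or P7d replicate 2. *Dkc1*, which encodes dyskerin, was 20.28 ± 1.55 FPKM at E18.5d and 15.74 ± 3.112 FPKM at P1d (SD, n = 3 each), with a log2 change of -0.36 (adjusted p = 0.0419 with limma). This call was lost after leaving out any single heart except P1d replicate 3, and by median of ratios. *Naf1*, an assembly factor, fell by 0.28 on the log2 scale at P1d (adjusted p = 0.0325 with limma), a call also lost by median of ratios, with the *Xist* covariate (as was that of *Dkc1*) and without E18.5d replicate 1 or 2 or any single P1d heart. The calls of both at P7d against E18.5d (-0.35 and -0.26) were lost under either other scaling and without several single hearts (7 of 9 for *Dkc1*, 5 of 9 for *Naf1*). *Shq1*, a chaperone of dyskerin, was 2.80 ± 0.5575 and 2.323 ± 0.6301 FPKM at E18.5d and P1d (SD, n = 3 each) and passed in no comparison. By median of ratios, 3 of 6 were lower at P1d and 3 of 6 at P7d against E18.5d, and none was higher. After scaling to an equal sum, these numbers were 5 and 3. Of the 13618 tested genes, 3031 and 2545 were lower in these comparisons by median of ratios, and 4694 and 4443 at an equal sum.

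Of 6 Cajal body and scaRNA factors, 4 were lower and none was higher at P1d against E18.5d, with 27.6% of all tested genes lower and 18.4% higher. *Coil*, which encodes the Cajal body scaffold coilin, fell from 4.83 ± 0.6065 to 3.40 ± 0.2352 FPKM (SD, n = 3 each; log2 change -0.40, adjusted p = 0.00633 with limma, and 0.0546 with the *Xist* covariate). *Wrap53*, whose protein brings RNAs with a CAB box to Cajal bodies, fell from 4.69 ± 0.2081 to 3.30 ± 0.2689 FPKM (SD, n = 3 each; log2 change -0.41, adjusted p = 0.00254 with limma). *Nolc1* and *Tcof1*, which encode related nucleolar phosphoproteins, fell by 0.64 and 0.54 on the log2 scale. At P7d against P1d only *Tcof1* was called (log2 change 0.36, higher, adjusted p = 0.00369 with limma), with 15.5% of all tested genes higher. At P7d against E18.5d *Coil*, *Wrap53* and *Nolc1* were lower, with 36.9% of all tested genes lower. Only *Nolc1* was also called there by median of ratios. *Coil* lost its call at P7d against E18.5d without E18.5d replicate 1 or P7d replicate 1 or 3, and *Wrap53* without E18.5d replicate 1 or P7d replicate 2 or 3. *Smn1*, needed for spliceosomal particle assembly, and *Toe1*, a nuclease of Cajal bodies, were called in no comparison.

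*Parn*, which encodes a deadenylase that trims the 3′ ends of H/ACA RNAs, was highest at P1d. It was 9.71, 9.14 and 8.72 FPKM at E18.5d, 14.02, 14.83 and 12.92 FPKM at P1d, and 9.66, 8.49 and 8.88 FPKM at P7d. All P1d hearts were above all others, with a log2 change of 0.55 ± 0.08 against E18.5d (SE, adjusted p = 0.000383) and -0.58 ± 0.08 at P7d against P1d (SE, adjusted p = 0.00036) with limma. In the list of 4 trimming and tailing genes, *Pabpn1*, a nuclear poly(A) binding protein gene, was lower at P1d and at P7d than at E18.5d (log2 change -0.30 and -0.40), neither of which was called by median of ratios, and the first not without E18.5d replicate 1 or with the *Xist* covariate (adjusted p = 0.122). *Tent4b*, a poly(A) polymerase gene, and *Exosc10*, a nuclease gene of the nuclear exosome, passed in no comparison.

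*Terc*, the telomerase RNA, carries an H/ACA domain and binds the same proteins. It was 7.31, 8.16 and 8.82 FPKM at E18.5d, 4.4, 0.35 and 7.35 FPKM at P1d, and 2.81, 4.55 and 1.38 FPKM at P7d. All P7d hearts were below all E18.5d hearts, but the differences did not pass the test (log2 change -1.21, adjusted p = 0.111 at P1d and -1.30, adjusted p = 0.0850 at P7d against E18.5d, with limma). *Tert*, the gene of its reverse transcriptase, had means of 0.4433, 0.22 and 0.2367 FPKM in stage order, under the filter, and was not tested. Of the 4 box C/D core genes (*Fbl*, *Nop56*, *Nop58* and *Snu13*), all were lower at P1d and at P7d than at E18.5d under each of the 3 scalings and none was called at P7d against P1d, with 27.6%, 36.9% and 28.6% of all tested genes lower before rescaling. *Nop58* had the largest change of these, a log2 change of -0.99 at P1d against E18.5d (adjusted p = 7.05e-05 with limma).

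**Figure D4:**
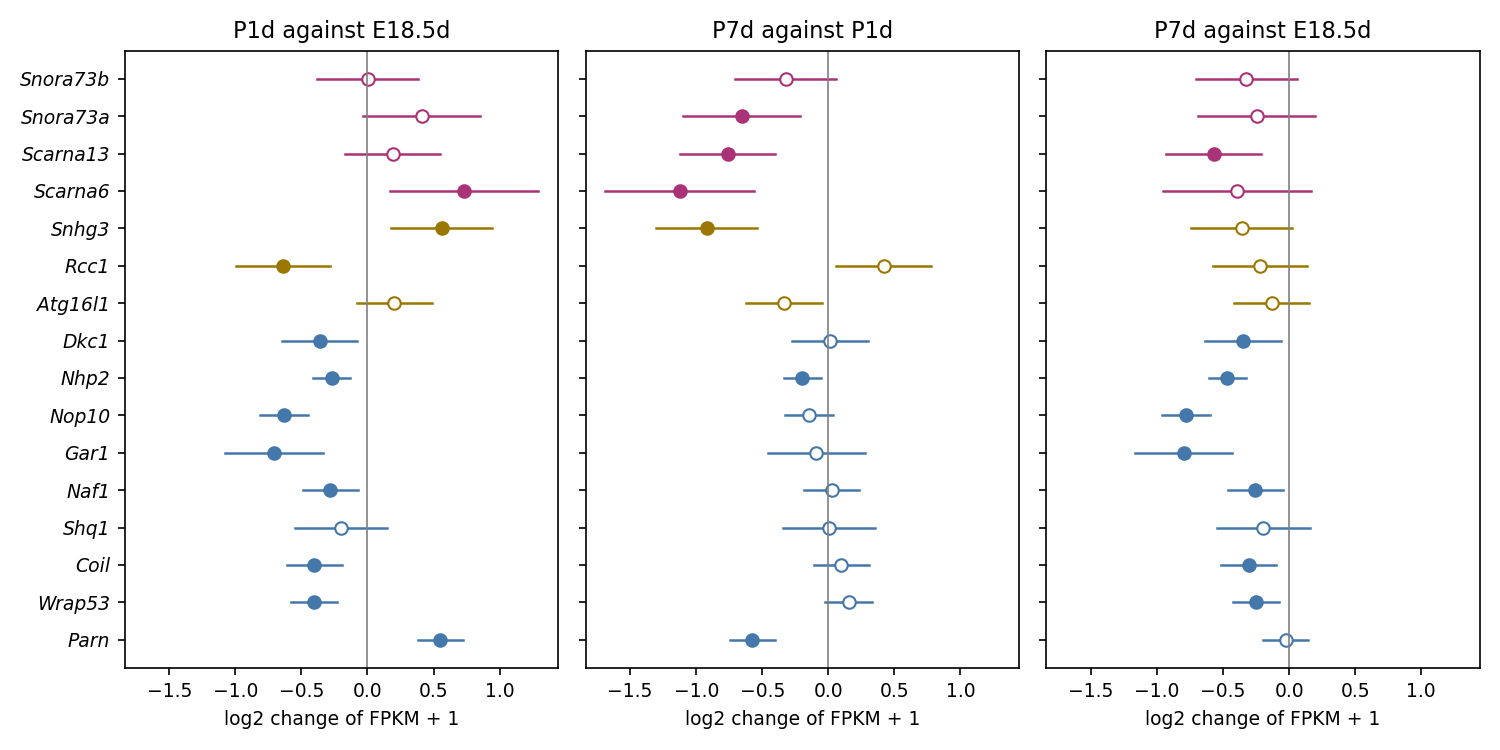
Log2 changes of FPKM + 1 between stages (horizontal axes, equal in the 3 panels) for the 4 members above 0 in every heart, 3 hosts, the 6 core and assembly genes, *Coil*, *Wrap53* and *Parn*. Points are estimates and lines are 95% intervals from limma, and filled points passed an adjusted p of 0.05. At P7d against P1d, *Scarna6* has the largest change of the genes shown, at -1.13.

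Several library measures moved with the stage or with single hearts beside these results. *Malat1*, a nuclear retained RNA, was 7412.96 to 7923.83 FPKM at E18.5d, 8975.98 to 9777.42 FPKM at P1d and 6937.33 to 7282.67 FPKM at P7d, without overlap between the stages. The other nuclear retained RNAs of the list did not peak at P1d. *Neat1* was lowest at E18.5d (6.95 to 8.56 FPKM), 14.2 to 20.51 FPKM at P1d and 17.78 to 25.22 FPKM at P7d, and *Meg3* went from 24.14 to 28.64 FPKM at E18.5d through 16.15 to 20.45 FPKM at P1d to 8.94 to 12.67 FPKM at P7d. P1d replicate 2, highest in *Scarna13*, *Scarna6* and *Snhg3*, was also highest in the sum of the structural RNAs. Of these, *Rmrp* had means of 37340, 44690 and 32290 FPKM in stage order. It was lower at P7d than at P1d (log2 change -0.48, adjusted p = 0.046 with limma). *Rpph1* (80180, 115000 and 87520 FPKM) and *Rn7sk* (277000, 367100 and 309400 FPKM) were also highest at P1d. *Rn7s1* (73450, 70680 and 74990 FPKM) and *Rn7s2* (292100, 315600 and 323600 FPKM) were highest at P7d. The summed level of erythroid markers (5 of 6 in the table) was 4490 to 12480, 7062 to 13860 and 4747 to 5938 FPKM, and that of 5 lung airway markers was 1.92 to 251.2, 0.79 to 491.7 and 0 to 0.23 FPKM, each in the order of the stages. The bases taken off the gene length were 296 to 304 at E18.5d, 324 to 328 at P1d and 308 to 320 at P7d. All members are shorter than this. The part of these measures in the results was not tested.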

How the data were processed

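RNA-seq of 9 C57BL/6J mouse hearts was analysed, 3 each at E18.5d, P1d and P7d. Per the labels, total RNA was extracted and libraries were made with the NEBNext Ultra RNA kit. Whether RNAs with a poly(A) tail were selected or ribosomal RNA was removed is not stated here. The authors deposited a table of FPKM values with 2 decimals and 1 column per heart. The submitters' processing notes name STAR and the builds GRCm38 and mm10; the counting tool, the annotation and the way FPKM of short genes were scaled are not given in the sources used here. Columns were assigned to samples by their titles, and no column belonged to another sample. Members, gene lists and tests were chosen with earlier results of these data known.

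Positions, hosts and sequences came from GENCODE M21 of GRCm38 (48144 of 48820 identifiers matched; 24151 rows have no symbol). Log2(FPKM + 1) of the 13618 genes averaging 1 FPKM or more was fitted with limma 3.58.1 in R 4.3.3 (eBayes with trend, 3 stages in 1 fit, Benjamini-Hochberg over all genes, threshold 0.05). Fold changes on this scale understate those of low genes. The p-values rest on the spread between hearts of a stage, pooled over the 3 stages and drawn by limma towards that of genes of similar level. Near copies were searched with BLAST 2.17.0. Depth was read from whole multiples of 1 fragment (87.3% to 90.9% of low values whole, within 0.1 of a fragment), and both scripts were tested on simulated data. The depth of a value is known only through these steps, so no counting interval is given. The rule for named genes took up to 10 members by mean, up to 5 called changes without overlap in each direction and comparison, and all *Scarna* members, which named all 7 members, with their hosts and the lists of core and assembly, Cajal body, trimming, telomerase and box C/D genes. *Gm26448*, *Scarna2*, *Scarna10* and the hosts of rows at 0 were chosen after their values were seen. Of the marker lists, summed levels were 260.3 to 391.8 FPKM for endothelial, 632.5 to 1047 for fibroblast, 39.11 to 84.99 for macrophage, 1490 to 1884 for skeletal muscle and 6.88 to 37.8 for brown fat genes. Alternatives tried were no filter, a pseudocount of 0.1, an equal sum, median of ratios, no trend, only the stages compared, the replicate number as a block, *Xist* as a covariate or as a reason to leave out hearts, and leaving out each heart in turn.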

Additional observations from a re-analysis of the deposited data

How the results depend on the processing

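The counts of members called changed as follows. The count higher at P1d against E18.5d was 1, and 0 with no filter, with only the stages compared, with the *Xist* covariate and without the hearts with *Xist* (range 0 to 2 when single hearts were left out). The count lower in that comparison was 0 (range 0 to 2). At P7d against P1d, the count lower was 3, and 0 without the hearts with *Xist* (2 or 3 otherwise), and the count higher was 0 (range 0 to 1). At P7d against E18.5d, the count lower was 1, and 0 by median of ratios and without the hearts with *Xist* (range 0 to 1). The cause was not tested, except that leaving out those hearts leaves 5. Log2 changes that turned sign were those of *Snora73b* at P1d against E18.5d (-0.173 at an equal sum, -0.192 to 0.129 without single hearts), *Scarna13* in the same comparison (-0.00144 to 0.307 without single hearts), *Snora73a* and *Snora73b* at P7d against E18.5d (0.127 and 0.0519 without the hearts with *Xist*) and *Atg16l1* at P7d against E18.5d (0.0673 by median of ratios, 0.202 without those hearts), and *Eif4a2* (0.045 and 0.0106 under the same alternatives, -0.0743 to 0.0467 without single hearts) and *Gm26448* (-0.282 to 0.228 without single hearts) at P1d against E18.5d; none of these had passed the test. Of the other values of single genes, 1029 kept their direction and side of the threshold, 150 lost the call and 13 gained one. With the replicate block, 1, 3 and 1 members were called as before (*Scarna6* at P1d, adjusted p = 0.0439 with limma), and the calls that changed were those of *Dkc1* at P1d and P7d and *Naf1* at P7d against E18.5d (adjusted p = 0.0548, 0.058 and 0.059) and *Atg16l1* at P7d against P1d (adjusted p = 0.0379). Same-numbered hearts correlated at -0.0546 to 0.112 in their deviations from the stage means and 2 of 9 hearts correlated best with their own number in both other stages, so the numbers were not taken to pair the hearts. Over all genes, the calls at P7d against E18.5d were 1706 higher and 5025 lower, 3159 and 2545 by median of ratios, and 1267 and 4443 at an equal sum; at P7d against P1d they were 2112 and 3901, 3194 and 2471, and 2200 and 1729; at P1d against E18.5d they were 2505 and 3755, 3215 and 3031, and 1175 and 4694. The median log2 change of all genes was then 0.01, 0.02 and 0.01 by median of ratios and -0.21, 0.02 and -0.21 at an equal sum, for P1d against E18.5d, P7d against P1d and P7d against E18.5d. No fold is given for the 3 genes with zeros.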
